A study of Mus musculus with 9 samples.

Results

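The transcripts followed here are 9 genes that mark mature B cells and antibody-secreting plasma cells (Ms4a1, Cd79a, Cd79b, Cr2, Fcer2a, Blnk, Pou2af1, Pax5 and Jchain), measured in cells sorted as natural killer (NK) cells. Every probe set annotated to one of these symbols alone was taken, which gave 12 of the 45101 probe sets on the array and 9 of the 18193 genes with a probe set of their own. RNA was measured on Affymetrix arrays in 3 groups of mice with 3 arrays each. The first group was splenic NK cells of IL15tg mice, which the study describes as mature. The other 2 were NK cells of NKDxIL15tg mice, described as immature, from spleen and from bone marrow (BM). IL15tg stands for a transgene of interleukin 15, a cytokine that NK cells need to survive, and all 3 groups carried it, so that no group without the transgene was compared. NKD is a transgenic mouse line with few mature NK cells. The promoters of the transgenes, the age of the mice, the gates of the sort and whether each array came from 1 mouse or a pool are not given in the sources used here. The 3 arrays of a group are labelled biological replicates, and p-values measure the spread between them.

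A B cell reads antigen through an immunoglobulin bound to a pair of signalling chains, CD79A (Ig-alpha) and CD79B (Ig-beta). Engagement of the receptor leads to phosphorylation of these chains, and the adaptor BLNK then links them to enzymes further down the pathway, while CR2 (CD21), the receptor for complement-coated antigen, lowers the threshold for the response. The transcription factor PAX5 sets and keeps B cell identity. POU2AF1 (OBF-1) is a coactivator that binds DNA together with octamer factors at octamer motifs, which are best known from immunoglobulin promoters. When a B cell becomes a plasma cell, PAX5 and many surface genes are shut off, and JCHAIN, the joining chain that links immunoglobulin units into IgM pentamers and IgA dimers, is made in large amounts. NK cells carry no rearranged immunoglobulin, and several of these genes serve as markers to tell B cells from them.

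Promoter windows of Cd79a and Blnk are shown because their genes code for a receptor chain and for the adaptor that acts after it, and because they were the windows of these genes that held either of the sought motifs. They cover 250 bases before the start of transcription, written 5′ to 3′ in the direction of the gene, with motif matches in capitals (RefSeq, GRCm38.p6). The Cd79a window lies at chr7:24897247-24897496 on the plus strand and the Blnk window at chr19:40994222-40994471 on the minus strand.
Cd79a: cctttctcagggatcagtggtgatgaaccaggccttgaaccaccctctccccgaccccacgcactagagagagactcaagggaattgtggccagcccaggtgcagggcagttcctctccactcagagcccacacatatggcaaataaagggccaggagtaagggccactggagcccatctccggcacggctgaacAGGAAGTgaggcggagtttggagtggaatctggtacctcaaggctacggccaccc
Blnk: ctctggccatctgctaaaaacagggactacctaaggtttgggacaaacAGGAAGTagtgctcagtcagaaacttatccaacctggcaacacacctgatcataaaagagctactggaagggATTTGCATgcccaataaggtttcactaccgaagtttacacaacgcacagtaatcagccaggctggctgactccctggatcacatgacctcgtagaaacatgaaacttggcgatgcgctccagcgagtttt
The octamer ATTTGCAT, or its reverse complement ATGCAAAT, was found in Blnk at 130 to 123 bases before the start. It stood in 526 of all 32851 mouse windows of this length, or 1.60%. The core of ETS family sites AGGAAGT, or ACTTCCT, was found in Cd79a at 55 to 49 and in Blnk at 202 to 196 bases before the start, and in 7.69% of all windows. RefSeq windows were matched for 7 of the 9 genes, and those of the other 5 (Cr2, Pax5, Pou2af1, Jchain and Fcer2a) held neither motif. A match is a run of letters and does not show a binding site.

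The values are intensities on a linear scale, 1 for each probe set and array. The array medians lay between 56.6 and 59.1 in 8 arrays and at 64.9 in NKDxIL15tg bone marrow replicate 3, which also had the lowest mean rank correlation with the arrays of its own group, 0.877 against 0.916 to 0.976 in the others. NK marker transcripts were read in every group. Nkg7, a protein of cytotoxic granules, had group means of 5495, 4832 and 4768 in IL15tg spleen, NKDxIL15tg spleen and NKDxIL15tg bone marrow, and Gzma, a granule protease, had 11530, 10559 and 9131. The NK marker Ncr1 had 1642, 1078 and 1156. Its IL15tg arrays (1532 to 1842) lay above those of NKDxIL15tg spleen (1021 to 1139) and marrow (789 to 1464), but it did not pass in any comparison. Other NK genes were far lower in NKDxIL15tg cells: the receptor genes Klrk1 (1383, 173 and 196), Klrd1 (5941, 1232 and 898) and Klre1 (4217, 953 and 778), and the transcription factor Tbx21 (2036, 840 and 648). Of 14 tested NK genes, these 4 fell between the spleens (limma; 2 higher and 6 lower at an unadjusted p below 0.05). Between NKDxIL15tg marrow and spleen 0 rose or fell (limma; 0 higher and 3 lower at an unadjusted p below 0.05). Between marrow and IL15tg spleen 5 fell, the same 4 and Prf1 (limma; 1 higher and 9 lower at an unadjusted p below 0.05). The test called 0 of the 14 higher in any comparison. Some markers of the label, such as Nkg7, were thus read at like levels in all groups, and others were not.

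The spleens of both genotypes were compared first, then the marrow with the spleen of NKDxIL15tg mice, and last that marrow with IL15tg spleen. These 3 comparisons share groups and are not independent of one another. Each was fitted with limma on log2 intensity with a floor of 16, over the 27022 probe sets whose mean exceeded 47.7, with Benjamini-Hochberg adjustment of the p-values over that whole set. A gene was represented by its brightest probe set, and rose or fell where the adjusted p was below 0.05. Of the 9 genes, 8 passed the filter and Blnk did not. The filter uses the mean of all 9 arrays, so a gene that is low in marrow passed through its spleen level, and the counts below describe these 8 and are no independent evidence.

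In the spleens, 6 of the 8 tested genes fell in NKDxIL15tg cells and 0 rose, with limma also finding 0 higher at an unadjusted p below 0.05. Over all 12925 tested genes, 4.87% fell and 7.65% rose. The median change of the 8 was -1.27 on the log2 scale, against 0.02 over all tested genes. Between NKDxIL15tg bone marrow and spleen 4 of the 8 fell (Ms4a1, Pou2af1, Cr2 and Jchain) and 0 rose, where 6 of all 12925 genes fell, or 0.0464%, and 0.0232% rose. Of the 8, Pax5 alone was higher at an unadjusted p below 0.05 in that comparison. The median of the 8 was -1.52 against 0.03. Between NKDxIL15tg bone marrow and IL15tg spleen 7 of the 8 fell and 0 rose, also none at an unadjusted p below 0.05, where 8.7% of all tested genes fell and 11.5% rose, with medians of -3.04 and 0.12. The 4 calls between marrow and spleen of NKDxIL15tg mice depended on single arrays: limma called 0 without NKDxIL15tg spleen replicate 1, 1 without replicate 3, and 2 without NKDxIL15tg spleen replicate 2 or without bone marrow replicate 1 or 2, while 4 were called without bone marrow replicate 3. With no filter on dim probe sets limma also called 0 of them, with adjusted p of 0.0622 for Ms4a1 and 0.0947 for Jchain. In RNA of a whole sorted sample, fewer cells of a type and less RNA per cell cannot be told apart.

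**Figure D1:**
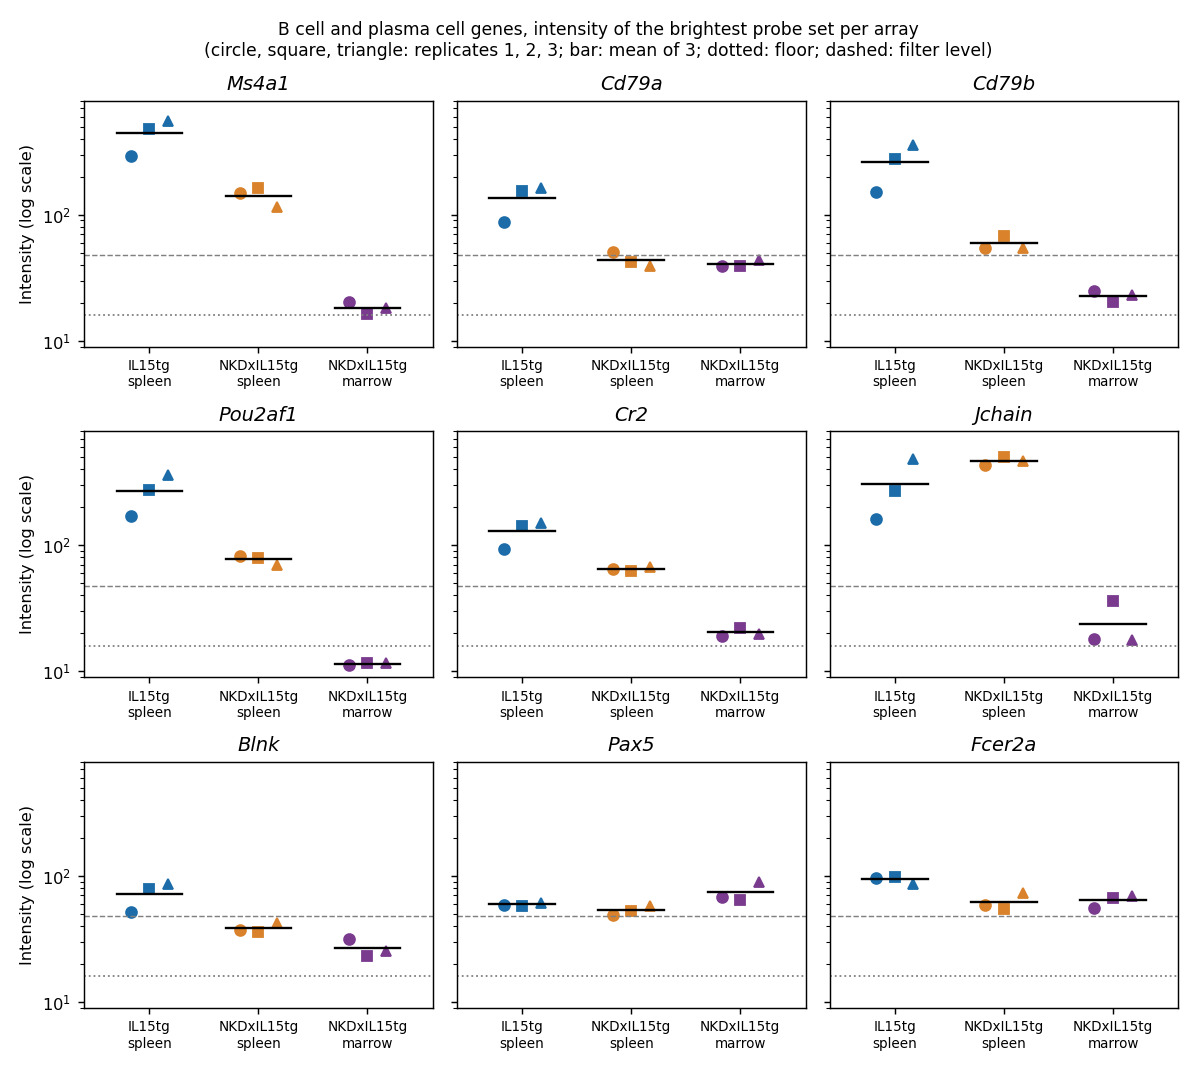
Intensity of the brightest probe set of each of the 9 genes on a log axis, for the 3 arrays of each group (circle, square and triangle are replicates 1, 2 and 3, the bar is the mean). The dotted line is the floor of 16 and the dashed line the filter level of 47.7. Most genes step down from IL15tg spleen to NKDxIL15tg spleen to bone marrow, Jchain stays high in both spleens, and Pax5 moves little. Cd79a and Fcer2a are lower in both NKDxIL15tg groups than in IL15tg spleen, and for each gene those 2 groups overlap.

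Among the surface genes, Ms4a1 (CD20, a membrane protein of B cells and the target of rituximab) had the largest change from IL15tg spleen to NKDxIL15tg marrow, while Cd79b changed more between the spleens. Its brighter probe set (1423226_at) read 292, 475 and 557 in the IL15tg spleen arrays, 148, 162 and 115 in NKDxIL15tg spleen, and 20.4, 16.3 and 18.2 in bone marrow. No 2 groups overlapped, and the marrow arrays sat just above the floor. Ms4a1 fell by 1.61 ± 0.24 (standard error, SE) on the log2 scale between the spleens, a 3.04-fold lower level (limma adjusted p = 0.00292). From NKDxIL15tg spleen to bone marrow it fell by 2.94 ± 0.24, or 7.67-fold (limma adjusted p = 0.00506). The second probe set (1450912_at), which reads the same gene and is no further replicate, had means of 277 ± 113, 92.3 ± 8.13 and 14.3 ± 2.25 (SD, n = 3). It changed by -1.50 ± 0.27 and -2.50 ± 0.27 (limma adjusted p = 0.00767 and 0.0175), with 2 of the 3 marrow arrays under the floor.

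Both signalling chains of the antigen receptor fell between the spleens, and neither passed the test from NKDxIL15tg spleen to marrow. Cd79b read 153, 277 and 356 in IL15tg spleen, 54.5, 68.3 and 54.6 in NKDxIL15tg spleen, and 24.6, 20.4 and 23.3 in bone marrow. Its change between the spleens was -2.07 ± 0.27, or 4.20-fold lower (limma adjusted p = 0.00162). The further step to marrow was -1.37 ± 0.27, with no overlap of the arrays, and did not pass (limma adjusted p = 0.254, unadjusted p = 0.000684). IL15tg spleen replicate 1 belongs to neither of these groups but enters the shared spread. Without it, and with the same probe sets tested, the limma adjusted p was 0.0418, the lowest of a range that reached 1 over the alternatives.

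Cd79a, the partner chain, read 87.0, 155 and 164 in IL15tg spleen, 50.8, 42.0 and 39.2 in NKDxIL15tg spleen, and 39.0, 38.9 and 43.8 in bone marrow. It fell by 1.57 ± 0.23 on the log2 scale between the spleens, or 2.98-fold (limma adjusted p = 0.00272), a call that a floor of 64, above the NKDxIL15tg values, ended (-1.03, adjusted p = 0.0691). The marrow and spleen arrays of NKDxIL15tg mice overlapped, with a difference of -0.11 ± 0.23 (limma adjusted p = 0.852). The marrow arrays thus held a Cd79a intensity near 40.6 ± 2.83 (SD, n = 3) where Cd79b had dropped to 22.8 ± 2.16. Intensities of different probe sets are not on a common scale, so the amounts of the transcripts cannot be set against each other, and the difference between their steps was not tested.

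Cr2 read 94.1, 141 and 151 in IL15tg spleen, 65.2, 62.2 and 67.5 in NKDxIL15tg spleen, and 19.2, 22.2 and 19.8 in bone marrow. All 3 groups stood apart, and the NKDxIL15tg spleen arrays had a mean of 64.97 ± 2.66 (SD, n = 3). Cr2 fell by 0.96 ± 0.17 between the spleens (1.94-fold, limma adjusted p = 0.00774) and changed by -1.67 ± 0.17 from spleen to marrow (3.19-fold lower, limma adjusted p = 0.0141).

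Fcer2a, which codes for the low-affinity IgE receptor CD23 of follicular B cells, behaved otherwise. Its brighter probe set (1422122_at) read 97.0, 98.1 and 86.9 in IL15tg spleen, 58.2, 54.7 and 73.3 in NKDxIL15tg spleen, and 55.6, 67.1 and 68.6 in bone marrow. The IL15tg arrays were above all others and close to one another, while the NKDxIL15tg groups overlapped. It fell by 0.61 ± 0.14 between the spleens (1.52-fold, limma adjusted p = 0.0230), a call lost without any one of 5 of the 6 spleen arrays (adjusted p 0.0501 to 0.0873 without IL15tg replicate 1, 2 or 3 or NKDxIL15tg replicate 1 or 2). Marrow differed from IL15tg spleen by -0.56 ± 0.14 (limma adjusted p = 0.0227), lost at 0.0696 to 0.0823 without IL15tg replicate 1 or 2 or marrow replicate 1. Between marrow and spleen of NKDxIL15tg mice the difference was 0.04 ± 0.14 (limma adjusted p = 0.909), and its sign turned under quantile normalization (-0.04) and a common 75th percentile (-0.04). The other probe set (1451713_a_at), under the filter, lay between 16.8 and 25.5 in all 9 arrays.

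Blnk, the adaptor whose promoter window is printed above, was too dim on average to be tested. It read 51.2, 78.9 and 86.8 in IL15tg spleen, 37.2, 35.7 and 42.4 in NKDxIL15tg spleen, and 31.7, 23.3 and 25.3 in bone marrow. Each group lay below the one before it with no overlap, as did 15.1%, 6.03% and 16.6% of all tested genes in the comparison of the spleens, of marrow with NKDxIL15tg spleen, and of marrow with IL15tg spleen. With no filter, limma gave changes of -0.88 ± 0.21 (adjusted p = 0.0462), -0.53 ± 0.21 (adjusted p = 0.434) and -1.41 ± 0.21 (adjusted p = 0.00606). The direction was that of the receptor chains.

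Of the transcriptional regulators, Pou2af1 fell in all comparisons and Pax5 in none. Pou2af1 read 172, 272 and 360 in IL15tg spleen, 82.8, 79.2 and 70.0 in NKDxIL15tg spleen, and 11.2, 11.7 and 11.6 in bone marrow, where all 3 arrays were under the floor of 16. It fell by 1.73 ± 0.23 between the spleens (3.32-fold, limma adjusted p = 0.00168). The step to marrow is a lower bound: Pou2af1 was at least 4.82-fold lower against the floor (limma adjusted p = 0.0141), and the change was -2.75 with a floor of 8. None of the other 8 genes was under the floor of 16 in all 3 arrays of a group by its brightest probe set.

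Pax5, by its brighter probe set (1454401_at), read 59.1, 58.2 and 61.1 in IL15tg spleen, 48.8, 52.7 and 57.9 in NKDxIL15tg spleen, and 67.5, 64.3 and 89.6 in bone marrow. Here the marrow arrays were the highest, and the groups did not overlap. None of the Pax5 differences passed: -0.17 ± 0.14 between the spleens (limma adjusted p = 0.523), 0.46 ± 0.14 from spleen to marrow (adjusted p = 0.389, unadjusted p = 0.00937), and 0.30 ± 0.14 from IL15tg spleen to marrow (adjusted p = 0.164). Higher values without overlap between marrow and NKDxIL15tg spleen were seen in 10.8% of all tested genes, and between marrow and IL15tg spleen in 25.4%. The other probe set (1421765_at), under the filter, read 25.3 to 39.4 over all 9 arrays with overlapping groups.

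**Figure D2:**
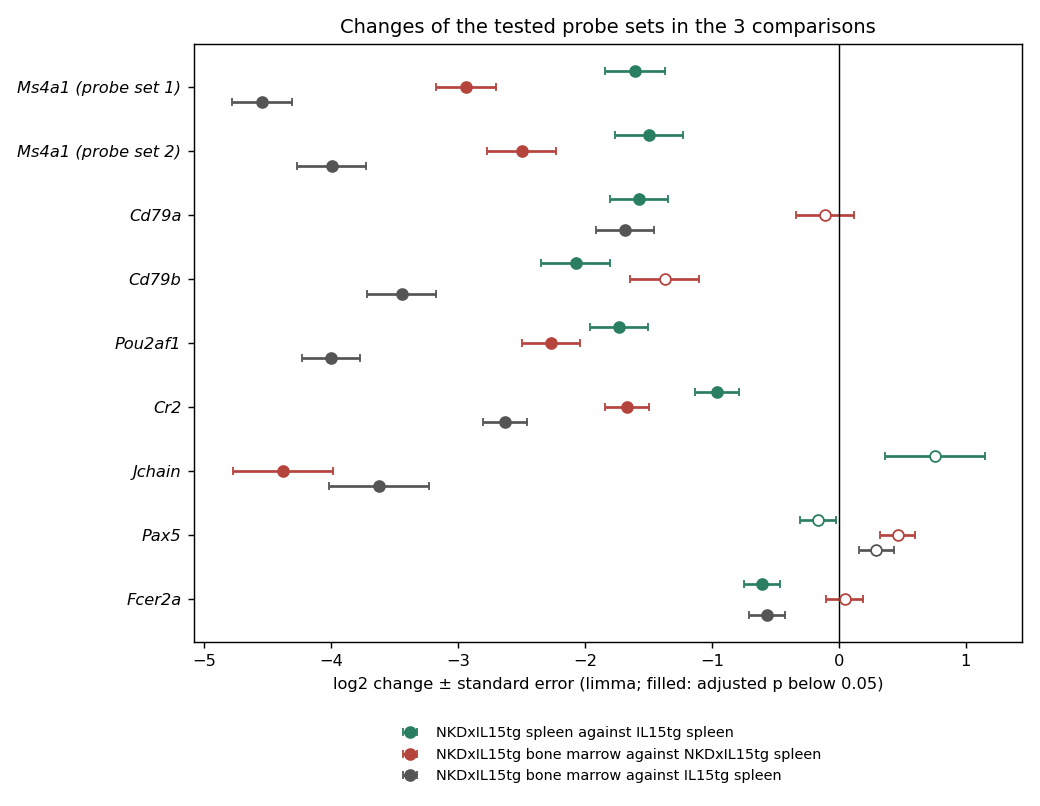
log2 change with its standard error (limma) for the 9 tested probe sets of the B cell and plasma cell genes in the 3 comparisons, with filled points where the adjusted p was below 0.05. Jchain lies at 0.76 between the spleens while Ms4a1, Cd79a, Cd79b and Pou2af1 lie between -1.50 and -2.07, and Pax5 lies between -0.17 and 0.46 with no filled point.

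Jchain, the joining chain of plasma cells, passed no test between the spleens and fell in the marrow. It read 161, 271 and 486 in IL15tg spleen and 435, 503 and 468 in NKDxIL15tg spleen, and the arrays overlapped, with IL15tg replicate 3 as bright as the NKDxIL15tg arrays. The difference was 0.76 ± 0.39 (limma adjusted p = 0.253). In bone marrow Jchain read 17.96, 35.9 and 17.7, a log2 change of -4.38 ± 0.39 from NKDxIL15tg spleen and a 20.8-fold lower level (limma adjusted p = 0.00944). Against IL15tg spleen the marrow level was 12.3-fold lower (-3.62 ± 0.39, limma adjusted p = 0.000435). Of the 6 genes that fell from NKDxIL15tg spleen to marrow by their brightest probe set, Jchain had the largest change.

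Over the whole distance from IL15tg spleen to NKDxIL15tg marrow, the surface genes and the coactivator were lowered to different degrees. Ms4a1 changed by -4.55 ± 0.24 (23.3-fold lower, limma adjusted p = 6.42e-06), and Pou2af1 was at least 16.02-fold lower against the floor (limma adjusted p = 1.18e-05). Cd79b changed by -3.44 ± 0.27 (10.9-fold lower, limma adjusted p = 7.85e-05) and Cr2 by -2.63 ± 0.17 (6.19-fold lower, limma adjusted p = 2.66e-05). Cd79a, at -1.69 ± 0.23 (3.22-fold lower, limma adjusted p = 0.00131, and 0.0512 with a floor of 64), had made nearly its whole change between the spleens.

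The distance of Jchain from the other 7 tested genes was taken within each array, as its log2 intensity minus their mean. This measure was chosen after the values were seen, and is given with no test. It was 0.42, 0.66 and 1.35 in IL15tg spleen, 2.69, 2.89 and 2.85 in NKDxIL15tg spleen, and -0.75, 0.28 and -0.86 in bone marrow. The group means differed by 2.00 ± 0.28 (SE) between the spleens, and by 1.81 to 2.27 when any 1 spleen array was left out. The groups did not overlap in this measure, and the NKDxIL15tg spleen arrays were the highest.

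**Figure D3:**
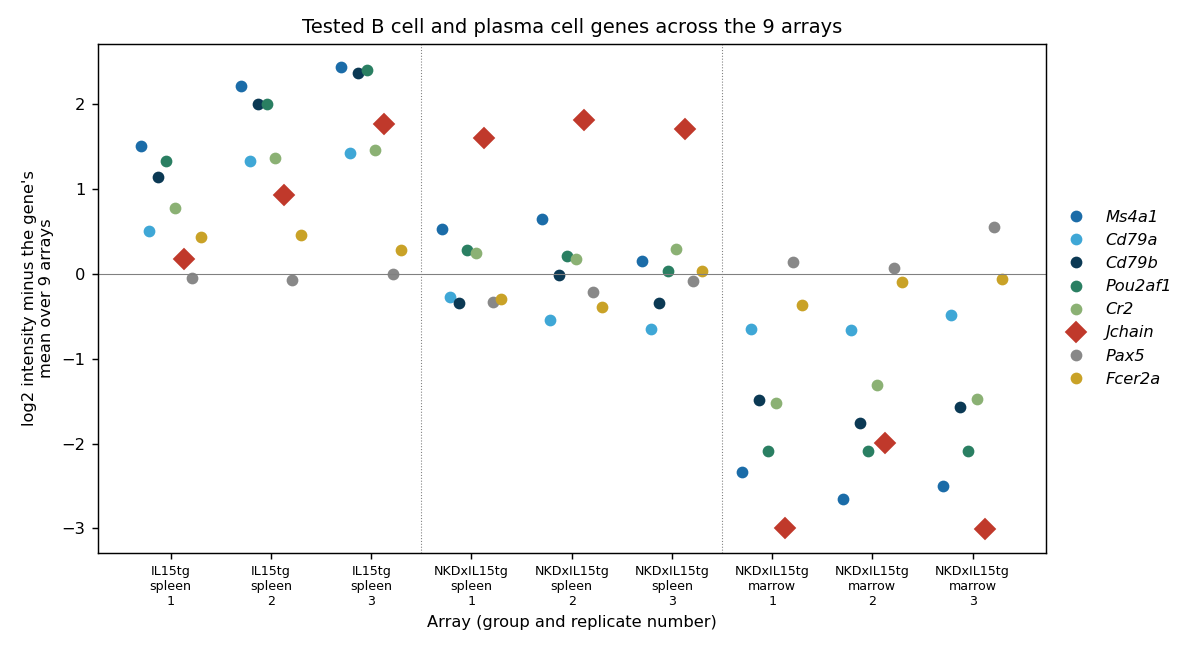
log2 intensity of the 8 tested genes minus each gene's mean over the 9 arrays, by array, with Jchain as diamonds. Jchain lies below the other genes except Pax5 in IL15tg replicate 1 and above all of them in the 3 NKDxIL15tg spleen arrays, and Ms4a1, Cd79b, Pou2af1, Cr2 and Jchain are lowest in bone marrow.

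Most of the 9 genes varied in one order among the IL15tg spleen arrays. Ms4a1, Cd79a, Cd79b, Pou2af1, Cr2, Jchain and Blnk, or 7 of the 9, were lowest in replicate 1 and highest in replicate 3, an order seen in 2504 of the 12925 tested genes (19.4%). The highest array exceeded the lowest by 1.91-fold in Ms4a1, 2.33-fold in Cd79b, 3.03-fold in Jchain and 1.60-fold in Cr2. Pax5 (1.05-fold) and Fcer2a (1.13-fold) were nearly level over the same arrays. The summed intensity of the 9 genes was 1166, 1827 and 2309 in the IL15tg arrays, 980.0, 1059.9 and 987.9 in NKDxIL15tg spleen, and 287, 300.2 and 317.9 in bone marrow. IL15tg replicate 1 nevertheless lay above every NKDxIL15tg spleen array for each of the 6 genes that fell between the spleens.

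Sums over marker lists of other cell types moved with these values in part, and their part in the result was not tested. The 9 MHC class II presentation genes with a probe set of their own, which B cells, dendritic cells and macrophages share, summed to 3601, 5283 and 6836 in the IL15tg arrays, and 7 of the 9 were lowest in replicate 1. Their sums were 2338 to 2674 in NKDxIL15tg spleen and 1598 to 2176 in marrow. The sum of the 14 NK genes differed little between the IL15tg arrays (54174 to 56105) and was 39885 to 42544 in NKDxIL15tg spleen and 33906 to 36860 in marrow. The 10 dendritic cell and macrophage genes summed to 1384 to 1510, 1356 to 1522 and 1293 to 3851, the last in marrow replicate 3, and 0 of the 8 tested rose or fell in any comparison (limma; at an unadjusted p below 0.05, 1 was higher between the spleens and 1 lower in each marrow comparison).

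The neutrophil list ran the opposite way. Its 8 genes summed to 479 to 781 in IL15tg spleen, 2706 to 7115 in NKDxIL15tg spleen and 10546 to 26129 in marrow. In the 3 comparisons in the order given above, 6, 1 and 8 of the 8 rose, while 0 fell (also 0 at an unadjusted p below 0.05, limma). In the second comparison all 8 were higher at an unadjusted p below 0.05 (limma), with no overlap of the groups. The 8 erythroid genes summed to 1799 to 1924, 7440 to 7939 and 5336 to 7441, and 3, 0 and 4 of the 7 tested rose (limma; 1 higher and 1 lower at an unadjusted p below 0.05 in the second comparison). Most of the erythroid sum came from Car2, a carbonic anhydrase, with means of 1407, 7016 and 5986. Alas2 (42.3, 172 and 75.4) and Epor (103, 163 and 143) rose in the same comparisons as Car2, the first and the third. Car1 rose in the third alone (59.8, 69.9 and 87.4), and 0 of the 7 fell. Hba-a1, a globin gene, was under the filter at means of 28.3, 34.2 and 35.1. The 10 T cell genes summed to 1651 to 1947, 3266 to 4749 and 3088 to 3926, and 1, 0 and 1 of the 7 tested rose (limma; 0 at an unadjusted p below 0.05 in the second). The rise in that sum lay mostly in Cd28 (means of 380.1, 1637 and 1410.3), the gene that rose, and in Thy1 (642, 1246 and 1075), which did not pass. Among chains of the T cell receptor complex, Cd3e had means of 56.1, 60.4 and 67.5. Cd3d had 271, 388 and 423, and Cd3g had 101, 197 and 153. None of these chains passed in any comparison. The NKDxIL15tg spleen arrays ranged from 191 to 651 in Cd3d and from 60.1 to 458 in Cd3g. No gene of these lists was at or under the floor on all 9 arrays. Both NKDxIL15tg groups thus had lower sums of the 9 genes and higher neutrophil and erythroid sums than IL15tg spleen, and whether these contribute to the differences was not tested.

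**Figure D4:**
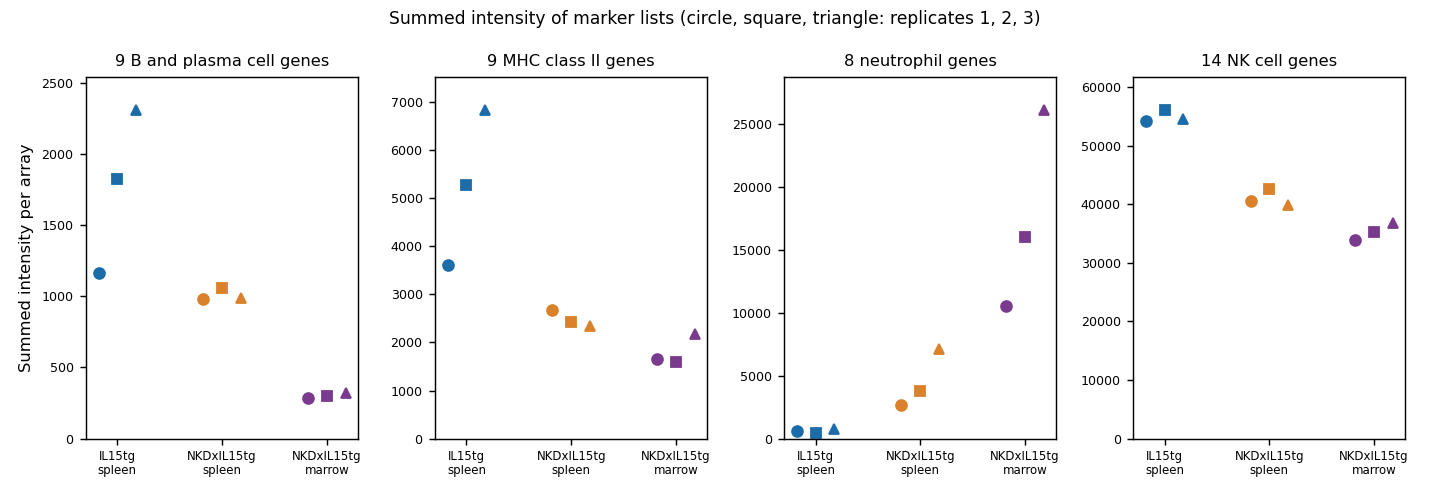
Summed intensity per array of the 9 B and plasma cell genes and of marker lists of other cell types, each panel with its own axis from 0 (circle, square and triangle are replicates 1, 2 and 3). The sums of the 9 genes and of the MHC class II genes are spread over the IL15tg spleen arrays, the NK sums are not, and the neutrophil sums are highest in bone marrow.

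Between marrow and spleen of NKDxIL15tg mice, limma called 14 of the 27022 tested probe sets (0.0518%), or 23 with the replicate number as a block, and 5 of the 11 that fell (0.0407% of those tested) belong to the genes described here: Jchain, both of Ms4a1, Pou2af1 and Cr2. Another 3 are annotated to the same 5 immunoglobulin kappa light chain genes (Igkv6-23, Igkv4-53, Igkv8-30, Igkj1 and Igkc) and cannot be assigned to one of them. The largest change of these 3 was from a mean of 846 in spleen to 55.1 in marrow (-3.96 ± 0.24, limma adjusted p = 0.00138), the others being -3.23 ± 0.31 and -2.40 ± 0.25. That probe set read 904, 1402 and 1501 in IL15tg spleen, 1021, 774 and 744 in NKDxIL15tg spleen and 51.1, 70.5 and 43.7 in marrow, so the marrow arrays alone stood apart. A probe set annotated to Igkv8-30 alone, a gene that those 3 are also annotated to, changed from 256 to 44.4 (-2.51 ± 0.24, limma adjusted p = 0.0109). Whether it also reads related transcripts was not tested. Like Jchain, none of these 4 kappa probe sets passed between the spleens, with changes of -0.57, -0.56, -0.34 and -0.24 (limma adjusted p = 0.165, 0.280, 0.448 and 0.610).

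The remaining 2 that fell were Matn2, an extracellular matrix protein (135 to 51.2, -1.40 ± 0.11), and Macir (519 to 263, -0.98 ± 0.11). The 3 that rose were Mpo, Prtn3 and Ctsg, enzymes of the primary granules of myeloid cells, at 2.71 ± 0.30, 3.25 ± 0.36 and 3.47 ± 0.39. Matn2 was not in step with the B cell genes, since it read 15.7 on average in IL15tg spleen and rose by 2.99 from there to NKDxIL15tg spleen (limma adjusted p = 1.37e-06).

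Immunoglobulin heavy chain genes with a probe set annotated to them alone were Ighm, Igha and Ighg3, and whether these also read related transcripts was not tested. Igha, the constant region of IgA, read 132, 348 and 617 in IL15tg spleen, 54.6, 49.98 and 45.1 in NKDxIL15tg spleen, and 37.1, 46.9 and 45.8 in marrow. It was lowest in IL15tg replicate 1, as Jchain was, but unlike Jchain it fell between the spleens (-2.62 ± 0.45, limma adjusted p = 0.00603) and did not pass from there to marrow (-0.21 ± 0.45, adjusted p = 0.859). Ighm, the constant region of IgM, read 1094, 1413 and 1771, then 2703, 2028 and 1468, then 1039, 611 and 876, and passed in none of the comparisons (limma adjusted p = 0.270, 0.316 and 0.0801). Ighg3 stayed between 62.6 and 79.7 in all 9 arrays.

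The other genes of the B cell surface and of antigen receptor signalling give the setting of the receptor chains. Of 30 listed, 27 were read by their own probe set, and 25 of those passed the filter. Between the spleens 5 fell and 0 rose (0 also at an unadjusted p below 0.05), with a median of -0.21. Prkcb, a kinase that passes the receptor signal to NF-kappaB, went from 1143 ± 177 to 265 ± 17.9 (-2.10 ± 0.17, limma adjusted p = 0.000111). Tnfrsf13b (TACI, a receptor for BAFF and APRIL) went from 106 ± 19.5 to 39.3 ± 1.58 (-1.42 ± 0.19), and the paracaspase Malt1 from 704 ± 153 to 271 ± 41.9 (-1.37 ± 0.21). The other 20 did not pass. Among them were Cd22 (285 ± 48.0 to 246 ± 58.4, limma adjusted p = 0.892) and Cd72 (562 ± 11.4 to 525 ± 63.6, limma adjusted p = 0.769). Prkcb and Malt1 are also used by other lymphocytes, and the list is no pure B cell list.

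From NKDxIL15tg spleen to marrow, 0 of these 25 rose or fell (limma; at an unadjusted p below 0.05, 1 was higher and 1 lower), with a median of 0.01. Between marrow and IL15tg spleen 7 fell and 0 rose, although 2 were higher at an unadjusted p below 0.05, and Prkcb again changed most (-2.28 ± 0.17). The summed intensity of the list was level over the IL15tg arrays (9985 to 10128). Even so, 13 of its 27 genes were lowest in IL15tg replicate 1, against 7 in replicate 2 and 7 in replicate 3. The sum reached 13343 in bone marrow replicate 3 against 6915 and 8058 in the other marrow arrays.

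Of 11 tested B lineage transcription factors other than Pou2af1 and Pax5, 4 fell and 1 rose between the spleens (median -0.14), and 3 fell and 1 rose between marrow and IL15tg spleen. Ikzf3 was the gene that rose in both. Its change was 0.71 ± 0.13 from IL15tg spleen to marrow (limma adjusted p = 0.00562). Between the spleens it went from 1318 ± 41.1 to 2185 ± 277 (0.72 ± 0.13, limma adjusted p = 0.0074). Mef2c, needed for B cell proliferation after receptor engagement, went from 192 ± 25.5 to 41.5 ± 1.42 (-2.20 ± 0.12, limma adjusted p = 1.15e-05). Bcl6, the germinal centre repressor, went from 184 ± 22.8 to 65.1 ± 16.4 (-1.52 ± 0.29), and Irf8 from 2475 ± 147 to 1195 ± 150 (-1.06 ± 0.15). From there to marrow 0 of the 11 rose or fell (limma; 2 higher and 1 lower at an unadjusted p below 0.05). Spib, an ETS family factor of B cells, was under the filter and read 49.6, 69.3 and 92.6 in IL15tg spleen, 29.3 to 35.8 in NKDxIL15tg spleen and 22.1 to 23.8 in marrow. Ebf1, the early B cell factor, was under the filter in a range of 18.9 to 37.6.

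Of the 10 tested plasma cell genes other than Jchain, 1 rose and 2 fell between the spleens, with a median of 0.04, and 1 rose and 2 fell between marrow and IL15tg spleen. Ell2, an elongation factor that plasma cells use to make secreted immunoglobulin, rose from 146 ± 3.23 to 627 ± 110 (2.09 ± 0.15, limma adjusted p = 6.37e-05). Prdm1 (Blimp-1), the plasma cell regulator that NK cells also express, fell by 0.73 ± 0.17 (342 to 207), and Slamf7 by 0.54 ± 0.11 (734 to 505). From spleen to marrow, where Jchain was 20.8-fold lower, 0 of the 10 rose or fell (limma; 0 higher and 3 lower at an unadjusted p below 0.05). Xbp1, the regulator of the secretory machinery, and Mzb1, a chaperone of IgM assembly, differed between the spleens by 0.09 ± 0.14 and -0.37 ± 0.19 (limma adjusted p = 0.765 and 0.258). Early B cell genes were mostly dim: 4 of the 8 with a probe set of their own were tested, none rose or fell between the spleens (limma; 1 higher at an unadjusted p below 0.05), none did so from there to marrow (0 at an unadjusted p below 0.05), and Vpreb3 rose from IL15tg spleen to marrow (115 to 194, 0.73 ± 0.18, limma adjusted p = 0.0226).

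Of the 9 tested MHC class II presentation genes, 5 fell and 0 rose between the spleens (0 higher at an unadjusted p below 0.05, limma), with a median of -0.96. H2-Ob, a chaperone subunit of peptide loading made chiefly in B cells, went from 165 ± 39.5 to 55.2 ± 2.34 (-1.55 ± 0.20, limma adjusted p = 0.00162), H2-Aa from 1738 to 685 and H2-Ab1 from 896 to 352. From spleen to marrow 0 of the 9 rose or fell (limma; 1 higher and 5 lower at an unadjusted p below 0.05). Between marrow and IL15tg spleen 5 fell and 1 rose, with H2-Ob at -2.68, H2-Aa at -2.25 and Cd74, the invariant chain, at -2.09. H2-Oa, the partner subunit of H2-Ob, was the gene that rose (0.72 ± 0.21, limma adjusted p = 0.0413).

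**Figure D5:**
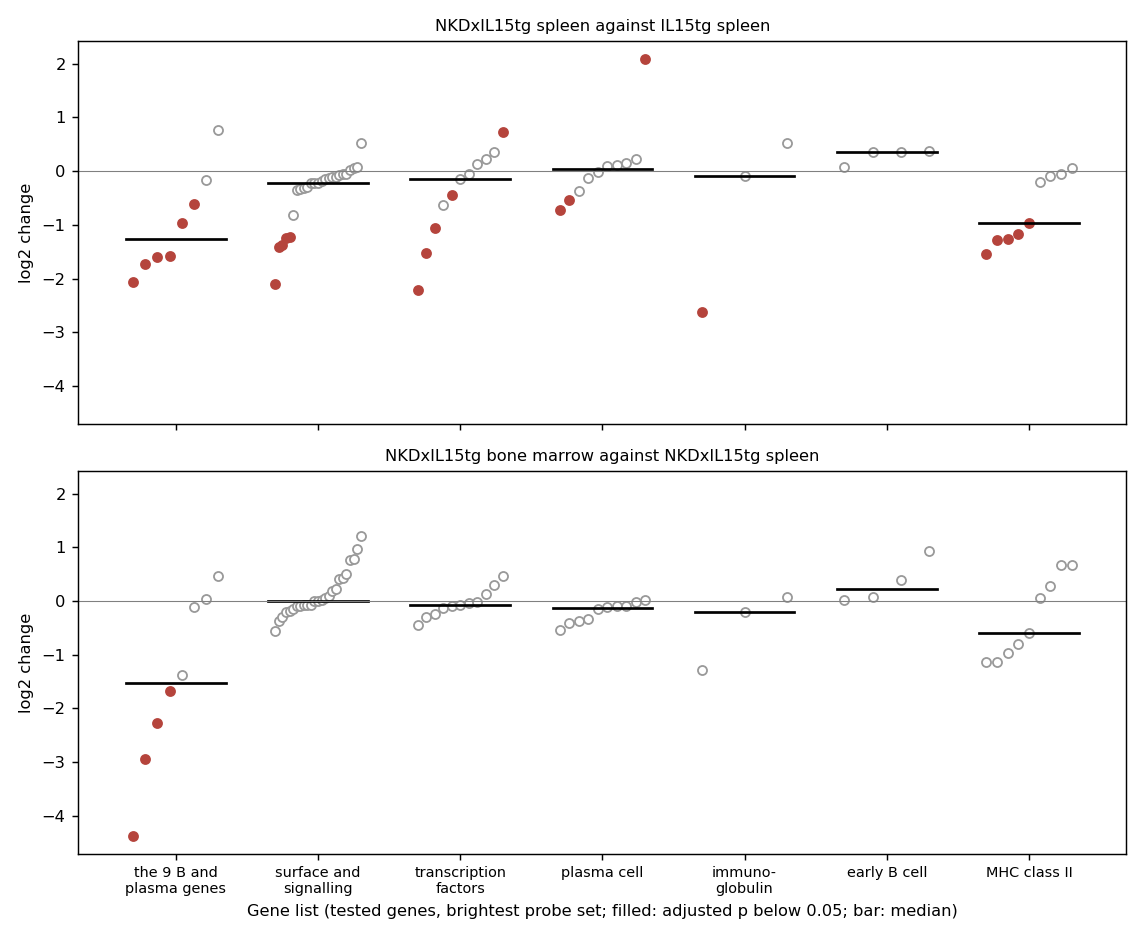
log2 change of each tested gene of the B lineage lists between the spleens and between NKDxIL15tg marrow and spleen, with filled points where the limma adjusted p was below 0.05 and a bar at each list's median. The 9 B and plasma cell genes have medians of -1.27 and -1.52 over the 8 tested, and the median of the surface and signalling list lies at -0.21 and 0.01.

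The genes whose profile over the 9 arrays was nearest to the mean profile of Ms4a1, Cd79a and Cd79b were found by the root mean square difference of centred log2 values, among 12925 tested genes. Cd79b, which itself belongs to that mean, was nearest (0.160 log2), and Cr2 and Pou2af1 had ranks 5 and 6 (0.376 and 0.378). The 8 nearest other genes were Ccr6 (0.235), H2-Ob (0.306), Fcmr (0.355), Btla (0.387), H2-Aa (0.418), Ifng (0.449), As3mt (0.456) and St6gal1 (0.461). Ccr6, a chemokine receptor, read 148, 235 and 263 in IL15tg spleen, 67.6, 68.3 and 84.3 in NKDxIL15tg spleen, and 30.3, 29.0 and 25.0 in marrow. Fcmr, the Fc receptor for IgM, read 205, 355 and 414, then 57.6, 56.6 and 48.3, then 20.2, 20.4 and 20.6.

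Both were lowest in IL15tg replicate 1. Ifng, the interferon that NK cells secrete, shared the steps between groups but not that feature, with 2739, 3168 and 2606 in IL15tg spleen. Ms4a1 and Cd79a, which also belong to the mean profile, had ranks 50 (0.662) and 63 (0.695). Fcer2a had rank 964 (1.15), Jchain 4287 (1.34) and Pax5 8553 (1.47).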

How the data were processed

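NK cells were sorted in the study, total RNA was extracted with Trizol, and 150 ng per sample was amplified in a 2-cycle, 3' directed protocol and hybridised, per the labels' protocols. Each probe set has 1 intensity per array, on a linear scale, as deposited by the authors; their probe summary and scaling are not stated in the sources at hand. Amplification from the 3' end can lower probe sets far from it. Per the labels, the 3 groups hold 3 biological replicates each, and the number of arrays limits the precision.

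Values were used as deposited, raised to a floor of 16, and log2 transformed. The 64 control probe sets were left out, and probe sets above the 40th percentile of mean log2 intensity were tested (27022). R 4.3.3 and limma 3.58.1 (lmFit, eBayes) were used with all 9 arrays sharing 1 estimate of spread, and checked on simulated data. The named genes are the 9, all their probe sets, up to 3 genes of largest change per list and comparison, and the 8 nearest profiles. Matn2, Macir, Mpo, Prtn3, Ctsg, Ikzf3, H2-Oa, the kappa probe sets and the named NK, T cell and erythroid genes were named after their values were seen. So were some genes that did not pass (Cd22, Cd72, Ighm, Ighg3, Spib, Ebf1, Xbp1, Mzb1). The 9 genes and the lists were chosen with earlier results of these data known. Other floors, scalings, filters, weights, blocks and single arrays left out were tried as alternatives. Deviations from the group means of same-numbered arrays correlated at 0.123 to 0.163 between the spleens and at 0.228 to 0.379 between NKDxIL15tg spleen and marrow. Different-numbered arrays reached 0.155 between the spleens, so the values there do not set same-numbered arrays apart. Between NKDxIL15tg spleen and marrow the different-numbered arrays lay at -0.349 to -0.007. Between marrow and IL15tg spleen 1 same-numbered pair was at -0.02. The labels state no pairing. The main fits held no block, and the replicate number as a block was run as an alternative. No pair of arrays shared over 0.00887% of identical values.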

Additional observations from a re-analysis of the deposited data

How the results depend on the processing

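The direction of each tested gene was kept under the alternatives run, except that Fcer2a in NKDxIL15tg marrow against spleen (0.04) became -0.0094 with a floor of 64, -0.0389 with quantile normalization, -0.0390 with a common 75th percentile, -0.0444 with array weights and -0.0407 to 0.171 with 1 array left out, and that Pax5 between the spleens and Cd79a between marrow and spleen came to 0 with a floor of 64, which lies above their values. The counts of the 9 genes called (6 between the spleens, 4 in NKDxIL15tg marrow against spleen, 7 in marrow against IL15tg spleen) were 1, 2 and 2 with a filter at the 60th percentile, which left 2 of the genes tested. With 1 array left out they were 5 to 6, 0 to 5 and 6 to 7. The count of 4 became 0 with a floor of 64 and 0 with no filter, where more probe sets were tested (adjusted p 0.0622 for Ms4a1, 0.101 for Pou2af1, 0.0947 for Cr2 and Jchain). Over all probe sets, 3725, 14 and 5764 were called, and 2102, 5 and 3466 with a floor of 64. Array weights gave 5685 between the spleens, and no filter gave 2 in NKDxIL15tg marrow against spleen. With 1 array left out the ranges were 1809 to 5483, 1 to 15 and 3089 to 6342, the lowest without IL15tg spleen replicate 1, NKDxIL15tg spleen replicate 1 and IL15tg spleen replicate 1. With a floor of 64 the calls of Cd79a were lost between the spleens (adjusted p = 0.0691) and in marrow against IL15tg spleen (0.0512). With the replicate number as a block, 3789, 23 and 5957 probe sets were called, and the counts of the 9 genes stayed at 6, 4 and 7. The block changed no call of the 9 genes' tested probe sets. The labels give the arrays no more than a shared number, so the block is an alternative and not the main fit. Values near the floor, as in the marrow, limit how far a fold can be read.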
